A study of Mus musculus with 12 samples.

Results

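Obp2a and Tmprss6 are 2 of the 34508 genes in the tumor table of this series, and both stood among the 4 largest increases in Myc-CaP tumors of mice treated with YJ1206. They were chosen from the tumor libraries themselves, by 3 conditions: no overlap between the groups, a mean over the 6 tumor libraries of 5 CPM or more (CPM being counts scaled to a common library size), and an adjusted p-value under 0.05. Of 1595 genes that met these conditions and were higher with YJ1206, Obp2a ranked 1 and Tmprss6 ranked 4 by log2 fold change. Their values in tumors are therefore a description and carry no test here, whereas the cell libraries played no part in the choice.

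The series holds 12 RNA sequencing libraries in 4 groups of 3. Myc-CaP is a mouse prostate carcinoma line, derived from a mouse in which human MYC was overexpressed in the prostate. Cultured Myc-CaP cells were treated with DMSO or with 1 μM YJ1206, a degrader of the kinases CDK12 and CDK13, for 24 hours. For the tumors, Myc-CaP cells were grown under the skin of male FVB mice, which have an intact immune system, and the mice were dosed orally 3 times per week, either with vehicle or with 100 mg/kg of YJ1206. All 4 groups thus come from 1 cell line, and the tumor libraries also hold RNA of the host's cells. Total estimated counts ranged from 13936984 to 18520071 in the cells and from 15391684 to 26928447 in the tumors.

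Obp2a encodes odorant-binding protein 2A, a small secreted protein of the lipocalin family. Lipocalins fold into a barrel that holds a small hydrophobic molecule, and odorant-binding members are known from nasal and other glandular secretions. Tmprss6 encodes matriptase-2, a type II transmembrane serine protease best known from the liver. Matriptase-2 cleaves hemojuvelin, a co-receptor for bone morphogenetic proteins (BMPs), and so restrains the BMP and SMAD signal that switches on the iron hormone hepcidin.

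In mouse build GRCm38, Obp2a is a protein-coding gene at chr2:25700043-25703326 on the plus strand, with a single annotated transcript of 744 bases in 7 exons. Its close relative Obp2b lies at chr2:25737009-25740097 on the same strand, with the starts 37 kb apart. Tmprss6 is a protein-coding gene at chr15:78439667-78468634 on the minus strand, with 7 annotated transcripts, the longest of 3192 bases in 18 exons. The genes in question are thus on separate chromosomes.

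The bases just upstream of Obp2a and Obp2b are shown because the genes differed widely in transcript level although these sequences are nearly alike. Each is read 5′ to 3′ on the plus strand from RefSeq (GRCm38.p6), ends at the base before the annotated transcript, and has the positions that differ in capitals. The Obp2a sequence is chr2:25699824-25700042 and that of Obp2b is chr2:25736790-25737008.
Obp2a: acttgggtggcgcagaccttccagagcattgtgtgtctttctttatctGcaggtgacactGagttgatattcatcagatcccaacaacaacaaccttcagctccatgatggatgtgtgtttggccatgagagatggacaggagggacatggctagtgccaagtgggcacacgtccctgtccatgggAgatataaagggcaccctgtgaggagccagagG
Obp2b: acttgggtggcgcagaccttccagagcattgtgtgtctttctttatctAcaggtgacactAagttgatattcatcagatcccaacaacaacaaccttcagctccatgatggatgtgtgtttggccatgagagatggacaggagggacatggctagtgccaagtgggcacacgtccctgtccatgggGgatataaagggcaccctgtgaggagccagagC
Of 219 bases, 4 differed, so that 98.2% were identical. Both hold the letters TATAAA, starting 30 bases before the transcript, and 12.4% of the 32851 promoters in the same RefSeq table hold these letters on either strand in the 250 bases before the start.

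The transcripts of Obp2a and Obp2b are also alike at their beginning, where reads can be assigned to either. Their first 130 bases, 17.5% of the Obp2a transcript, were identical, and the longest exact run that they shared after that was 20 bases. Over the whole aligned transcripts (GENCODE vM21, GRCm38), 73.6% of bases were identical.

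Before the values, one feature of the tumor libraries bears on every comparison. Among genes with at least 5 CPM on average that differed by 2-fold or more between libraries 1 and 2, library 3 lay between them for 99.7% of 399 genes in the vehicle group and for 98.7% of 154 genes in the YJ1206 group. Library 1 lay between libraries 2 and 3 for 2.17% of 138 vehicle genes and for 28.6% of 7 YJ1206 genes. A weighted mean with 60.7% of library 1 and the rest of library 2 came within a median of 0.05 log2 units of vehicle library 3, over 11077 genes, and one with 37.3% of library 1 did so for YJ1206 library 3. These weights were fitted to library 3 itself. In cells the same fit came within medians of 0.05 (DMSO) and 0.07 (YJ1206) log2 units. There, however, libraries 1 and 2 differed by 2-fold or more for only 5 DMSO and 4 YJ1206 genes. Any weighted mean of them was thus bound to lie close to library 3, and the cell fit is no reference for the tumors. For the members the weighted mean gave 6.21 CPM of Obp2a and 3.65 CPM of Tmprss6 in the vehicle group, beside 6.85 and 3.68 CPM measured in library 3. In the YJ1206 group it gave 101.4 and 24.97 CPM, beside 103.6 and 25.5 CPM measured. Each tumor call is therefore also given with libraries 1 and 2 alone, where the test called 1 gene of 15684 (0.00638%), which is none of those described here, although 3068 genes had an unadjusted p-value under 0.05.

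In vehicle tumors, Obp2a stood at 3.97 CPM in library 1, 9.68 CPM in library 2 and 6.85 CPM in library 3. In YJ1206 tumors it stood at 94.4, 105.5 and 103.6 CPM, in the same order. The groups were far apart, since the lowest YJ1206 library was 9.76 times the highest vehicle library, while the highest and lowest YJ1206 libraries differed by 1.12-fold. Of all 15558 genes tested in tumors, 21.8% likewise had every YJ1206 library above every vehicle library, and for the members this was a condition of their choice. The mean was 6.83 ± 2.86 CPM (SD, n = 3) with vehicle and 101.2 ± 5.93 CPM (SD, n = 3) with YJ1206, and the fitted log2 fold change was 3.88 (SE 0.27), or 14.7-fold. Counts behind these values were 88, 258 and 106 with vehicle and 1729, 2358 and 2009 with YJ1206.

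Tmprss6 stood at 2.21, 5.89 and 3.68 CPM in vehicle libraries 1, 2 and 3. With YJ1206 it stood at 27.3, 23.6 and 25.5 CPM. All 3 YJ1206 libraries were above all 3 vehicle libraries, by a factor of 4.004 between the closest ones, and vehicle library 2 was again the highest of its group. The mean was 3.93 ± 1.85 CPM (SD, n = 3) with vehicle and 25.5 ± 1.87 CPM (SD, n = 3) with YJ1206, a fitted log2 fold change of 2.68 (SE 0.30), or 6.40-fold. Its counts were 49, 157 and 57 with vehicle and 500, 527 and 495 with YJ1206.

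**Figure D1:**
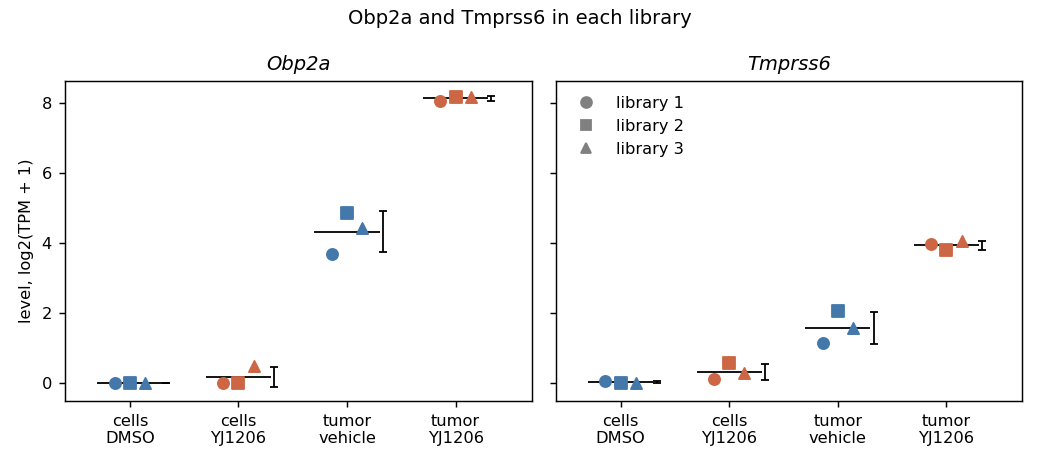
Level of Obp2a (left) and Tmprss6 (right) in each library, as log2(TPM + 1), where TPM is a level scaled for transcript length and library size, by group. Points are libraries, lines are means and bars are SD over 3 libraries. Both genes lie at or near 0 in cells, at an intermediate level in vehicle tumors and highest in YJ1206 tumors.

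Scaled for transcript length, Obp2a was the more abundant of the pair in every tumor library. Its level was 11.96, 27.9 and 20.4 TPM in the vehicle libraries and 268.5, 293.0 and 291.5 TPM in the YJ1206 libraries, whereas that of Tmprss6 was 1.18, 3.11 and 1.95 TPM and then 14.8, 12.9 and 15.6 TPM. The cell and tumor tables were scaled separately, over gene sets that differ, so TPM levels are compared between them only in order. Obp2a and Tmprss6 had the same order of groups, from DMSO cells through YJ1206 cells and vehicle tumors to YJ1206 tumors, and the DMSO and YJ1206 cells did not differ beyond their spread for Obp2a. By TPM, Obp2a ranked between 5457 and 8577 among the genes of a vehicle library and between 408 and 443 among those of a YJ1206 library. Tmprss6 moved from ranks 11411 to 13670 up to ranks 7440 to 8066. The level of Obp2a was 9.86 ± 0.79 times that of Tmprss6 with vehicle (SD, n = 3) and 19.9 ± 2.51 times with YJ1206 (SD, n = 3).

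The estimated counts of Tmprss6 are a sum over transcripts of different length, and the count that goes with 1 TPM reflects that length. Relative to Obp2a, which has 1 transcript, this count per TPM for Tmprss6 was 5.65, 5.46 and 5.63 in vehicle libraries and 5.26, 5.09 and 4.62 in YJ1206 libraries. The YJ1206 values were all lower, with means of 5.58 and 4.99, so a somewhat shorter average Tmprss6 transcript was estimated there. The tables give genes and not transcripts, so which transcripts contributed was not analysed here.

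The spread among vehicle tumors was wider than counting error. For Obp2a the 95% Poisson intervals were 3.18 to 4.89, 8.53 to 10.9 and 5.61 to 8.29 CPM in vehicle libraries 1, 2 and 3, and no pair of them overlapped. For Tmprss6 the intervals were 1.63 to 2.92, 5.003 to 6.89 and 2.79 to 4.77 CPM, and that of library 2 overlapped neither of the others. In YJ1206 tumors the coefficient of variation was 5.86% for Obp2a and 7.32% for Tmprss6, against 41.8% and 47.2% with vehicle. With 3 libraries per group these spreads are themselves uncertain.

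Vehicle library 2 carried more of both members than vehicle library 1, by 2.44-fold for Obp2a and 2.67-fold for Tmprss6. Leaving out vehicle library 2 raised the log2 fold change of Obp2a to 4.27 and that of Tmprss6 to 3.15. Leaving out vehicle library 1 lowered them to 3.58 and 2.37. With libraries 1 and 2 alone the values were 3.86 (SE 0.43) for Obp2a and 2.64 (SE 0.46) for Tmprss6. The direction was the same in each of these fits. Over the 13 alternatives tried, the log2 fold change of Obp2a ran from 3.58 to 4.27 and that of Tmprss6 from 2.37 to 3.15.

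By the order that chose the members, the gene between Obp2a and Tmprss6 at rank 2 was Tgtp1, an interferon-inducible GTPase, with a log2 fold change of 3.26. Klk1b11, a kallikrein-type serine protease gene, had 2.68 at rank 3, level with Tmprss6. Just outside, Eps8l1 at rank 5 had 2.56 and Gabrp, a GABA receptor subunit, had 2.46 at rank 6. The distance between Tmprss6 and Eps8l1 was smaller than the SE of Tmprss6.

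In cultured cells Obp2a was not detected with DMSO, with 0 counts in each of the 3 libraries. With YJ1206 it had 0, 0 and 2 counts. Both groups were under the 3 counts taken as the lowest level that a library can show, which correspond to 0.151 to 0.231 CPM, so no fold is given. A level of Obp2a in cells like that of the vehicle tumors (at least 3.97 CPM) would have been far above this limit.

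Tmprss6 had 1, 0 and 0 counts with DMSO and 2, 7 and 4 counts with YJ1206 in cells. Each YJ1206 library was above each DMSO library, by as little as 2 counts against 1, and all levels were under 1 CPM. Such an order held for 38.4% of the 11826 genes that passed the filter on low counts in cells. Tmprss6 was not among those genes, so that share is no direct reference for it. The mean was 0.017 ± 0.030 CPM (SD, n = 3) with DMSO and 0.326 ± 0.193 CPM (SD, n = 3) with YJ1206. Summed over libraries and scaled for depth, 13 counts against 1 give a ratio of 18.97, with an exact 95% counting interval of 2.85 to 806, which covers counting error only.

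Neither member passed the filter on low counts in cells, so neither was among the 11826 genes of the main cell comparison, in which 76.1% of genes were called changed. An exact two-sided permutation test of the Tmprss6 CPM over the 20 splits of 3 against 3 libraries gave p = 0.10, the smallest that 6 libraries allow. Fitted without the filter by the edgeR quasi-likelihood test, 9483 of 20442 genes were called. In that fit Tmprss6 had a log2 fold change of 3.74 (SE 1.29) and an adjusted p of 0.00886 (edgeR). The fold change and its SE depend on the small count added before taking logs. Without YJ1206 library 2 the adjusted p was 0.0984, and without DMSO library 3 it was 0.0531. For Obp2a the same fit gave an adjusted p of 0.279. The 24-hour exposure of cells and the repeated dosing of mice differ in time and dose, so the experiments are shown side by side only.

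In tumors, Obp2b had 0 counts in every vehicle library and 4, 2 and 5 counts in the YJ1206 libraries. In cells it had 0 counts in all 6 libraries. Its counts in YJ1206 tumors were thus at the limit of detection, beside 6096 counts for Obp2a. Obp2b made up 0.180% of the 6107 counts of the pair (exact binomial interval 0.0900% to 0.322%), and in vehicle tumors 0 of 452 counts. That 0 allows a share of up to 0.664% by the limit of 3 counts, or 0.813% by the exact binomial upper bound. Since the first 130 bases of the transcripts are identical, the split of reads from that stretch is an estimate of the authors' counting tool, and these few counts of Obp2b are uncertain for that reason.

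The lipocalin family was examined next, with a list of 30 genes besides Obp2a, of which 27 were in the tumor table and 10 had enough counts to test. In tumors 3 of the 10 rose and none fell, with a median log2 fold change of 1.56 over the list and 0.01 over all genes. Over all 15558 genes tested in tumors 26.8% were called changed, and 11.9% were called higher. With libraries 1 and 2 alone 0 of the lipocalin genes were called by edgeR, with 3 at an unadjusted p-value under 0.05, without vehicle library 3 the number was also 0 (12.2% of all genes called), and without vehicle library 2 it was 8 (36.2% of all genes called).

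Lcn2 encodes lipocalin 2, which binds iron-carrying siderophores and is released by neutrophils and epithelia. Its levels in tumors were 22.6, 113.1 and 58.1 CPM with vehicle and 250.2, 375.9 and 329.9 CPM with YJ1206. All YJ1206 libraries were above all vehicle libraries, and the log2 fold change was 2.30 (SE 0.51, adjusted p = 0.0154, edgeR). When 1 library at a time was left out, the call held in 3 of 6 fits, and with libraries 1 and 2 alone the adjusted p was 0.209.

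Ptgds, which encodes lipocalin-type prostaglandin D synthase, rose from 23.3, 76.1 and 47.9 CPM to 163.7, 187.3 and 175.1 CPM. The log2 fold change was 1.83 (SE 0.36, adjusted p = 0.0105, edgeR), with no overlap between the groups. C8g, the lipocalin chain of complement component 8, rose by a log2 fold change of 1.49 (adjusted p = 0.0230, edgeR) but stayed under 1 CPM in every tumor library. C8g passed the filter on low counts only through its YJ1206 libraries, so a fall could hardly have been seen. Its call held in 7 of 13 alternatives and in 2 of the 6 fits that left out 1 library, and was lost with DESeq2 (adjusted p = 0.0777). C8g falls outside the rule for named genes and was added after its values were seen, to complete the count.

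The other lipocalin genes of note did not pass the test. Lcn11 stood at 2.16, 68.1 and 27.3 CPM with vehicle and at 93.8, 169.2 and 137.9 CPM with YJ1206 (log2 fold change 2.03, SE 0.86, adjusted p = 0.122, edgeR). Lcn10 stood at 4.19, 20.1 and 10.4 CPM and then at 23.1, 47.9 and 37.5 CPM (adjusted p = 0.0524). For both, the groups did not overlap, but the vehicle libraries differed among themselves by more than those of Obp2a did. Vehicle library 2 was the highest and vehicle library 1 the lowest for Obp2a, Lcn2, Ptgds, Lcn10, Lcn11 and Lcn12 alike. The remaining tested members, Apod, Orm1, Mup6, Lcn6 and Lcn12, had overlapping groups.

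**Figure D2:**
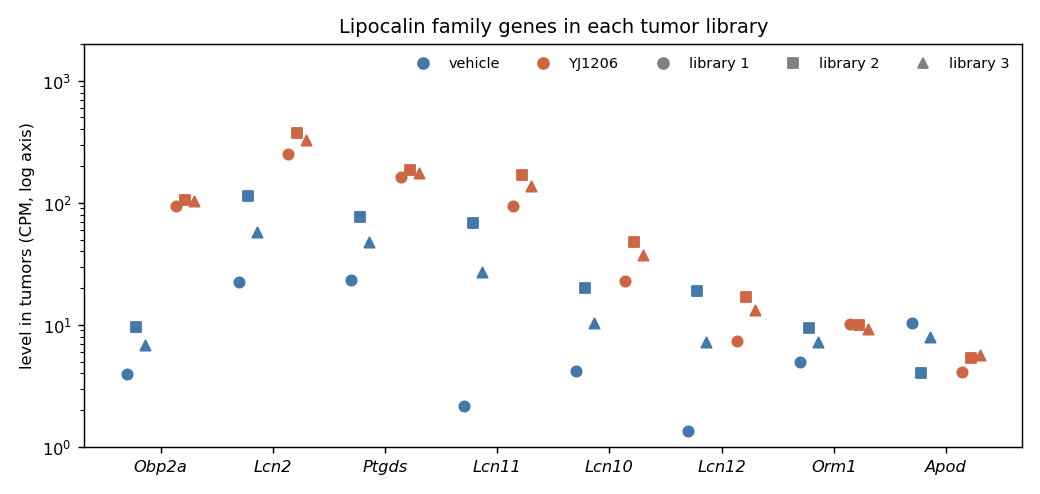
Levels of Obp2a and 7 other lipocalin genes in the 6 tumor libraries, in CPM on a log axis. Each point is a library, blue for vehicle and orange for YJ1206, with the shape giving the library number. Obp2a, Lcn2, Ptgds, Lcn10 and Lcn11 do not overlap between groups, which for Obp2a was a condition of its choice, whereas Lcn12, Orm1 and Apod overlap.

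In cells, 3 lipocalin genes could be tested and all 3 rose with YJ1206, where 37.8% of all genes tested were called higher. Lcn2 and C8g were near 0 with DMSO and passed the filter on low counts only through their YJ1206 libraries. A rise was thus the only change open to these genes, and the count cannot be read against that share. Lcn2 went from 0.154, 0.052 and 0.151 CPM to 3.72, 3.17 and 3.08 CPM (log2 fold change 4.72, SE 0.41, adjusted p = 5.66e-11, edgeR). C8g rose by 5.85 on the log2 scale (adjusted p = 4.14e-08), against DMSO libraries that held at most 1 count, and Orm1, an acute-phase plasma protein, rose by 0.72 (adjusted p = 0.000219). Lcn10, Lcn11 and Obp2b had 0 counts in all cell libraries. Obp2a, Lcn10 and Lcn11 were thus above the detection limit in tumors and not in cells.

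Obp2a lies in a group of lipocalin genes on chromosome 2. Of the 5 nearest genes on each side, Lcn10, Lcn6, Lcn5, Lcn8 and Fcna lie at lower coordinates, and Bmyc, Obp2b, Lcn3, Lcn11 and Gm13539 at higher ones. Bmyc, a relative of the MYC genes that lies 3.41 kb beyond the end of Obp2a, stood at 9.15, 16.8 and 12.9 CPM with vehicle and 12.6, 16.02 and 18.6 CPM with YJ1206. These groups overlapped, and its log2 fold change was 0.28 (SE 0.24, adjusted p = 0.428, edgeR). Lcn10, 14 kb before Obp2a, is given above, Lcn6 had 1.67 (SE 0.74, adjusted p = 0.136), Gm13539 had 1.11 (SE 0.69, adjusted p = 0.273), and Fcna, which encodes ficolin A of the lectin complement pathway, had 0.07 (SE 0.61). Lcn5, Lcn8 and Lcn3 had too few counts to test.

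Around Tmprss6 the nearest genes at lower coordinates are Kctd17, Mpst, Tst, Tex33 and Csf2rb, and at higher coordinates Il2rb, C1qtnf6, Sstr3, Gm6723 and Rac2. Kctd17, which ends 0.364 kb from Tmprss6, stood at 59.9, 51.8 and 56.6 CPM with vehicle and 47.6, 51.5 and 53.8 CPM with YJ1206, and its groups overlapped. Tst encodes thiosulfate sulfurtransferase, and it rose from 32.6, 24.2 and 30.3 CPM to 44.6, 38.7 and 44.5 CPM (log2 fold change 0.56, SE 0.12, adjusted p = 0.0165, edgeR). Mpst had 0.20, Il2rb 0.19, C1qtnf6 -0.05, Csf2rb -0.28, Rac2 0.38 and Gm6723 0.81, none past the threshold.

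Over both loci, 14 of the 20 neighbours, lipocalin genes of the family list among them, could be tested in tumors, and Tst was the only one called, with 26.8% of all genes called. Without vehicle library 2 the count was 6, where 36.2% of all genes were called. Without vehicle library 3 or without YJ1206 library 3 it was 0 (12.2% and 11.8% of all genes called), and with libraries 1 and 2 alone it was 0 by edgeR, with 1 at an unadjusted p-value under 0.05. The median log2 fold change of the 14 was 0.33, beside 0.01 over all genes. In cells 6 neighbours could be tested, and Bmyc, Kctd17, Mpst and C1qtnf6 fell while Tst rose, beside 76.1% of all genes called and 38.3% called lower. The call of Bmyc was lost with DESeq2 (adjusted p = 0.0584), without DMSO library 2 (0.0640, edgeR) and without YJ1206 library 1 (0.0957, edgeR). Under scaling by library totals Tst was not called in cells, and Rac2 was called lower. The call of Tst held in 8 of 13 alternatives in cells and in 7 of 13 in tumors.

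**Figure D3:**
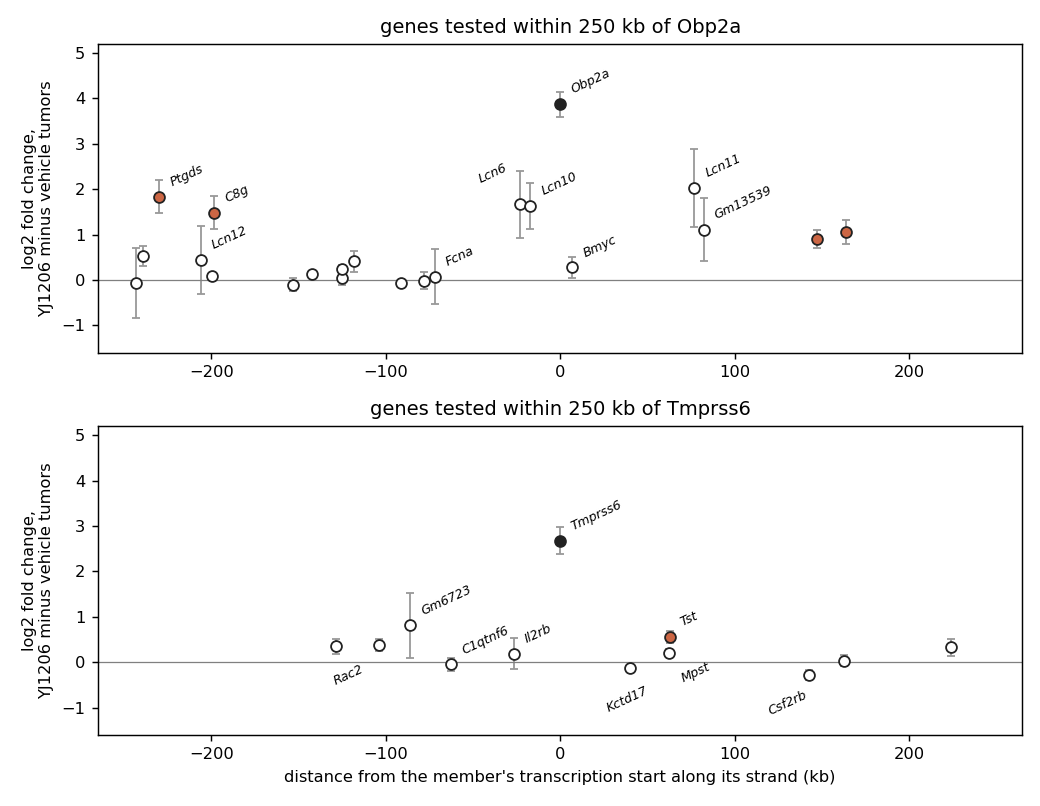
Log2 fold change of YJ1206 over vehicle tumors for every gene tested within 250 kb of Obp2a (top) and Tmprss6 (bottom), against distance from the member's start along its strand in kb. Bars are SE, black points are the members, orange points had an adjusted p under 0.05 and open points did not. Lipocalin genes near Obp2a lie above 0 with wide errors, and the neighbours of Tmprss6 lie between -0.28 and 0.81. Sohlh1 (0.90) and Kcnt1 (1.05), which are not lipocalin genes and lie farther from Obp2a than the neighbours named in the text, also had an adjusted p under 0.05.

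Type II transmembrane serine proteases, the family of Tmprss6, were examined in the same way. The list held 18 genes besides Tmprss6, all in the tumor table, of which 5 could be tested. In tumors 0 of the 5 were called by edgeR and 0 by DESeq2 (28% of all genes called), 2 had an unadjusted p-value under 0.05 by edgeR, and the median log2 fold change was -0.11, beside 0.01 over all genes. Hpn, which encodes hepsin, a protease of liver and prostate, stood at 0.631, 0.863 and 1.36 CPM with vehicle and 2.35, 1.03 and 1.03 CPM with YJ1206. In cells 1 gene of the list could be tested and 0 were called by edgeR, with 0 at an unadjusted p-value under 0.05. Tmprss2, a protease of prostate epithelium, had at most 5 counts in any tumor library and 0 in all cell libraries. St14, which encodes the close relative matriptase, stood at 0.090, 1.46 and 1.10 CPM with vehicle and 0.164, 0.269 and 0.206 CPM with YJ1206.

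Of 8 protease inhibitor genes, 6 could be tested in tumors and 1 rose, Spint2, near the 11.9% of all genes called higher. Spint2 encodes a Kunitz-type inhibitor of matriptases and hepsin. It rose from 224.1, 345.7 and 269.9 CPM to 550.5, 552.0 and 560.0 CPM in tumors (log2 fold change 0.98, SE 0.14, adjusted p = 0.00370, edgeR), with no overlap. In cells Spint2 had a log2 fold change of 0.15 (adjusted p = 0.00334), which turned to -0.03 under scaling by library totals. Spint1, its relative, stood at 1.34 to 3.16 CPM in the tumors and its groups overlapped.

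The pathway that Tmprss6 is known for was followed from its ligands to hepcidin. Of 35 hepcidin and iron genes on the list, 32 were in the tumor table and 29 could be tested, of which 3 rose, 2 fell and 24 did not pass the test, where 11.9% of all genes were called higher and 14.9% lower. The median log2 fold change was -0.02. With libraries 1 and 2 alone 0 were called by edgeR, with 5 at an unadjusted p-value under 0.05, and without vehicle library 2 the number was 14, where 36.2% of all genes were called. The 5 genes called kept their direction in all 13 alternatives but not their call, which held in 12 for Erfe, Furin and Smad9, in 10 for Tfrc and in 6 for Ftl1.

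Hepcidin transcripts were at or under the detection limit. Hamp had at most 1 count in any tumor library. Hamp2 had 0 counts in the vehicle tumors and at most 3 in a YJ1206 tumor, the limit itself, and in tumors it was called higher with log2(TPM + 0.1) alone. Both had 0 counts in all cell libraries. Hjv, which encodes hemojuvelin, the substrate of matriptase-2, stood at 1.98, 0.413 and 1.68 CPM in the vehicle tumors and at 0, 0.134 and 0 CPM in the YJ1206 tumors. It did not pass the filter on low counts. It was called lower in 5 of 13 alternatives, namely without the filter, in both TPM fits, without vehicle library 2 and without YJ1206 library 2. Vehicle libraries 1 and 3, where Hjv was highest, are also those with the most skeletal muscle transcripts, as given below, and Hjv is known to be expressed in muscle. The part that muscle had in the Hjv values was not tested.

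Among the ligands, Bmp6, the main iron-responsive ligand of the liver, stood at 1.71, 1.76 and 2.07 CPM with vehicle and 0.492, 0.716 and 1.65 CPM with YJ1206 (adjusted p = 0.136, edgeR). Bmp2 stayed at or under 1.09 CPM in all tumor libraries. Erfe, which encodes erythroferrone, a hormone that binds BMPs and lowers hepcidin, fell from 5.54, 7.13 and 7.43 CPM to 2.51, 3.40 and 2.89 CPM in tumors (log2 fold change -1.18, SE 0.18, adjusted p = 0.00460, edgeR). In cells it fell from 8.87, 8.06 and 9.32 CPM to 1.65, 0.981 and 1.38 CPM (log2 fold change -2.70, SE 0.19, adjusted p = 6.96e-13).

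Receptors and co-receptors did not pass the test in tumors. Bmpr1a had a log2 fold change of 0.08, Bmpr2 -0.02, Acvr1 -0.28, Acvr2a -0.21 and Neo1, which binds hemojuvelin, 0.11. Tfr2 and Hfe, sensors of transferrin-bound iron, had 0.40 and 0.13.

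Of the signal carriers, Smad9, which encodes a receptor-regulated SMAD of the BMP branch, rose from 15.1, 18.8 and 14.8 CPM to 40.9, 38.8 and 39.2 CPM in tumors (log2 fold change 1.28, SE 0.11, adjusted p = 0.000920, edgeR). In cells it rose from 12.6, 11.9 and 12.9 CPM to 31.1, 31.4 and 29.5 CPM (log2 fold change 1.30, SE 0.08, adjusted p = 2.87e-14). Smad1, Smad5, Smad4, Smad6 and Smad7 had log2 fold changes between -0.24 and 0.54 in tumors and did not pass.

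Id1, a standard target gene of BMP signals, stood at 6.72, 4.16 and 5.69 CPM in vehicle tumors and 5.13, 5.42 and 5.16 CPM in YJ1206 tumors, with overlapping groups. In cells it rose from 10.2, 10.3 and 13.2 CPM to 77.2, 76.4 and 85.3 CPM (log2 fold change 2.83, SE 0.08, adjusted p = 4.05e-22). The difference between these effects was not tested. Furin, a proprotein convertase that also cleaves hemojuvelin, rose in tumors by 0.43 (SE 0.06, adjusted p = 0.00312) and in cells by 1.08 (SE 0.04, adjusted p = 5.21e-20).

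Ftl1, the ferritin light chain, rose by 0.25 on the log2 scale (SE 0.06, adjusted p = 0.0257, edgeR), a call lost in both TPM fits and in 3 of the 6 fits that left out 1 library, and Fth1, the heavy chain, had 0.29 and did not pass. Tfrc, the transferrin receptor for iron uptake, fell from 184.4, 190.9 and 189.5 CPM to 115.7, 136.6 and 134.2 CPM (log2 fold change -0.55, SE 0.07, adjusted p = 0.00290). Slc40a1, the iron exporter ferroportin that hepcidin acts on, stood at 7.80, 1.43 and 5.88 CPM with vehicle and 1.97, 2.01 and 1.29 CPM with YJ1206, and its groups overlapped.

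In cells 22 of the list could be tested, of which 13 rose and 6 fell, where 37.8% of all genes tested were called higher and 38.3% lower. Scaling by library totals shifted the median log2 fold change over all genes in cells from -0.02 to -0.20 and gave 12 higher and 8 lower, with 28% and 49.7% of all genes. With log2(TPM + 1) the list split 9 against 10, with 16.6% and 40.2% of all genes. Beside those above, Ftl1 rose by 1.42 on the log2 scale, Hmox1, the heme-degrading enzyme, by 1.26 and Tfrc by 0.59, and Steap3, an iron reductase, had -1.05. These 4 kept their direction and their call under all 13 alternatives tried in cells, as did Id1, Smad9, Furin and Erfe.

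**Figure D4:**
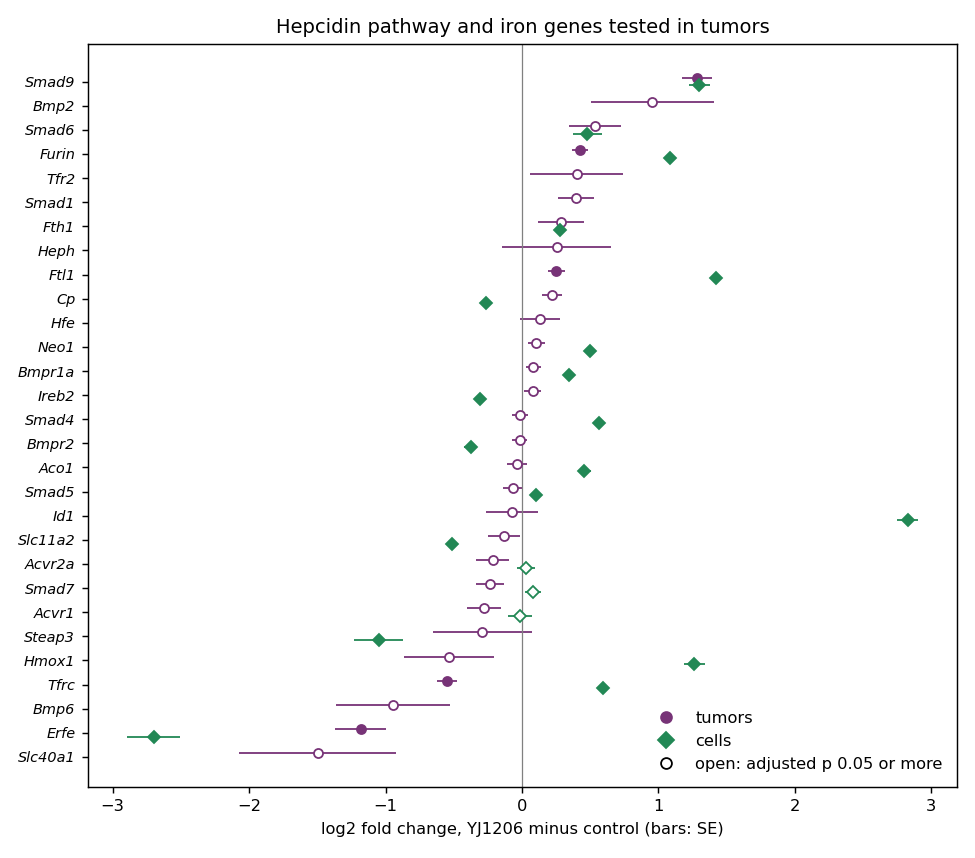
Log2 fold change of YJ1206 over control for the 29 hepcidin pathway and iron genes tested in tumors (purple circles), with the value in cells (green diamonds) where it could be tested. Bars are SE and filled points had an adjusted p under 0.05. Smad9 lies near 1.3 in both, Id1 lies far above 0 in cells and near 0 in tumors, and Tfrc lies below 0 in tumors and above 0 in cells.

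Cell type markers were compared because a tumor library mixes Myc-CaP cells with host cells. In such bulk samples, fewer cells of a type and less RNA per cell cannot be told apart. Over all genes tested in tumors, 11.9% were called higher and 14.9% lower, and the marker counts are to be read beside these shares. Of 8 hepatocyte markers, 6 could be tested and 1 rose, Fgb, which encodes the fibrinogen beta chain (log2 fold change 1.19, SE 0.15, adjusted p = 0.00237, edgeR). The list's median log2 fold change was 1.09, beside 0.01 over all genes. The summed level of the list was 269.4 to 428.6 CPM with vehicle and 603.3 to 911.6 CPM with YJ1206. It was mostly Fgb (540.7 to 788.4 CPM with YJ1206). The vehicle libraries had the same order in this sum as in both members. In YJ1206 libraries 1, 2 and 3 the sum was 911.6, 603.3 and 721.2 CPM. That is the order of Tmprss6 and the reverse of the order of Obp2a. Apoa1 had a log2 fold change of 1.27 and Tat one of 1.17, both with no overlap between groups, and Ttr had 1.01, Fga 0.68 and Cyp2e1 -0.70 with overlap, none past the threshold. Tat had at most 13 counts in a tumor library and passed the filter on low counts only through its YJ1206 libraries. A fall of Tat could hardly have been seen, and the list's median includes it. Alb and Apoa2, also defining genes of hepatocytes, had at most 1 count in any tumor library.

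Of 5 olfactory epithelium markers, 3 could be tested and 2 rose, Omp and Adcy3, and the list summed to 11.5 to 14.9 CPM with vehicle and 17.7 to 21.1 CPM with YJ1206. Gng13 had 0 counts in all tumor libraries and Cnga2 at most 1. Of 7 prostate and epithelial markers, 5 could be tested and 1 rose, Foxa1, a transcription factor of prostate epithelium, from 186.3, 236.6 and 205.5 CPM to 354.8, 280.9 and 305.8 CPM (log2 fold change 0.58, SE 0.11, adjusted p = 0.0101, edgeR). The list summed to 295.2 to 331.2 CPM with vehicle and 401.7 to 463.6 CPM with YJ1206, most of it from Foxa1. Pbsn had 0 counts in all tumor libraries, Epcam had at most 4 in any, Krt18 was at most 2.21 CPM and Cdh1 at most 1.29 CPM, and Krt8 and Hoxb13 were present, so the epithelial label rested on part of its markers. The part that these lists had in the values of Obp2a and Tmprss6 was not tested.

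Skeletal muscle transcripts separated the vehicle libraries. Acta1, skeletal muscle actin, stood at 239.9, 5.18 and 144.0 CPM with vehicle and 1.91, 0.806 and 1.19 CPM with YJ1206. All 4 tested genes of the list of 5 fell, where 14.9% of all genes were called lower, and the sum was 16.3 to 675.1 CPM with vehicle and 8.41 to 9.64 CPM with YJ1206. Vehicle library 2, with the least muscle and the fewest fibroblast transcripts of its group, was also the vehicle library with the highest Obp2a and Tmprss6. In the YJ1206 group library 1 had the least of both lists (8.41 CPM of muscle and 535.9 CPM of fibroblast transcripts). It had the lowest Obp2a and the highest Tmprss6 of that group. Leaving out vehicle library 1, which had the most muscle transcripts, gave log2 fold changes of 3.58 for Obp2a and 2.37 for Tmprss6, and leaving out vehicle library 3, which had the next most, gave 3.87 and 2.63. The part that muscle or fibroblast transcripts had in the members' values was not tested.

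Of 10 leukocyte markers 8 could be tested and 2 rose, where 11.9% of all genes were called higher, and the list summed to 187.4 to 283.7 CPM with vehicle and 187.6 to 250.9 CPM with YJ1206. Of 7 fibroblast genes 0 were called by edgeR, with 3 at an unadjusted p-value under 0.05, and the list summed to 762.8 to 2320 CPM with vehicle and 535.9 to 1290 CPM with YJ1206. Of 5 endothelial markers 5 could be tested and 1 rose, and of 5 adipocyte markers 2 could be tested and 1 rose, Fabp4. Fabp4 made up most of the adipocyte sum, with means of 29.97 CPM with vehicle and 44.02 CPM with YJ1206. It also stood at 32.4 to 37.1 CPM in the cultured cells. The other adipocyte genes had lower means with YJ1206: Adipoq (0.515 and 0.048 CPM), Plin1 (1.45 and 1.20 CPM), Cidec (0.386 and 0.036 CPM) and Lep (0.052 and 0 CPM). Keratinocyte markers summed to at most 0.413 CPM.

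**Figure D5:**
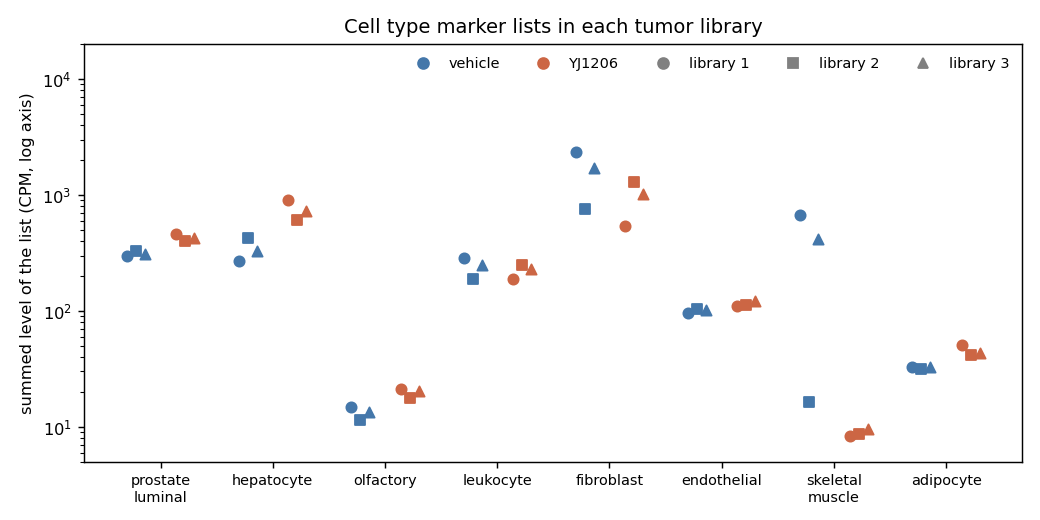
Summed level of 8 cell type marker lists in each tumor library, in CPM on a log axis, blue for vehicle and orange for YJ1206, with the shape giving the library number. The prostate, hepatocyte, olfactory, endothelial and adipocyte lists are higher with YJ1206 without overlap, and the skeletal muscle list is high in vehicle libraries 1 and 3 only. The adipocyte sum is mostly Fabp4, and the other genes of that list had lower means with YJ1206.

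Transcripts of the degrader's targets were also measured, although YJ1206 acts on the proteins, so transcript levels check nothing about degradation. Cdk12 rose in tumors by 0.35 on the log2 scale (adjusted p = 0.0108, edgeR) and in cells by 0.58 (adjusted p = 2.26e-14). In tumors, Cdk13 had 0.06 and Ccnk, which encodes cyclin K, had -0.11, neither past the threshold.

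Finally, the genes with the pattern most like each member over the 12 libraries were listed by Pearson's r of log2(CPM + 1), among 13875 genes with at least 1 CPM on average in tumors. The points share their libraries, all cell libraries lie near 0 for both members, and library 3 lies between the others in tumors, so r describes these libraries only. Saa1, an acute-phase serum amyloid gene, came first for both members, with r = 0.994 for each. Tmprss6 was second for Obp2a and Obp2a second for Tmprss6 (r = 0.994). Both members were chosen for a large increase in these same tumor libraries, so a high r between them follows from the choice. For Obp2a, Crocc2, Tacc2 and Cyp4f18 followed with r = 0.993 each, and for Tmprss6, Tacc2, Lamb2 and Ctsl followed with r of 0.993, 0.993 and 0.992. Saa1 was far less abundant than Obp2a, at 2.02 CPM in vehicle and 7.77 CPM in YJ1206 tumors, with a log2 fold change of 1.93.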

How the data were processed

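Ribosomal RNA was removed enzymatically from total RNA before library preparation, and the libraries were sequenced as paired reads. For the cells, GEO's molecule label reads polyA RNA, for the tumors total RNA. The authors deposited, for each experiment, a table of estimated counts per gene (not scaled between libraries) and a table of TPM values, scaled by the authors within each library for transcript length. The submitters' processing notes name kallisto, GRCm38 and mm10, with no version; the annotation is not given in the sources used here. Of the gene identifiers, 39867 of 40077 in the cell table and 34326 of 34508 in the tumor table matched GENCODE vM21 (GRCm38).

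Estimated counts were rounded, and each experiment was fitted alone by the quasi-likelihood test of edgeR 4.0.16 (R 4.3.3) after filterByExpr and TMM scaling, with Benjamini-Hochberg adjustment over all genes tested and a threshold of 0.05; the unit planned for was counts, and rounding is the only change. CPM values use the TMM-scaled library sizes. Alternatives were DESeq2 1.42.0, scaling by library totals, no count filter, limma 3.58.1 on log2(TPM + 1) or log2(TPM + 0.1) with a mean TPM of at least 0.1, a replicate block, leaving out each library, and libraries 1 and 2 alone. The test steps were run on simulated data. No 2 libraries of a group differed by less than sampling noise (chi-square per gene 1.94 to 49.7). The methods state that replicates were independent; whether libraries 3 were is given in the report only as measured.

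Groups came from the labels, and the mouse dosing from the study's methods. The members, gene lists and tests were chosen with earlier results of these data known. Named genes were the members; genes of the lists called in either experiment with at least 1 CPM on average, at most 8 per list, and genes with a described pathway role; neighbours passing the filter; the 6 largest increases by the choosing rule; the 5 genes most like each member; and Cdk12, Cdk13 and Ccnk. Some prostate markers are not reported here, and the sums for that list leave them out. Columns of per-sample values not used numbered 0. A count of 3 was taken as the floor, and intervals cover counting error only.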

Additional observations from a re-analysis of the deposited data

Results flagged for a closer look

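For 7 of the genes measured beside Obp2a and Tmprss6, every YJ1206 library moved one way in cells and the opposite way in tumors. Of all genes tested, 38.4% in cells and 21.8% in tumors had every YJ1206 library above every control library. These shares cover the upward direction only, whereas each of the 7 moved down in 1 of the experiments. The share of all genes with opposite directions was not computed, so whether 7 is unusual cannot be told. The difference between the experiments was not tested, and dose and time differ. Acta1, skeletal muscle actin, had a log2 fold change of 3.34 in cells, where it stayed under 2 CPM, and -6.66 in tumors, both past the threshold, and its vehicle tumor libraries ran from 5.18 to 239.9 CPM. In cells Acta1 stood at 0.103 to 0.202 CPM with DMSO. It passed the filter on low counts there only through its YJ1206 libraries, so a fall in cells could hardly have been seen. Tfrc had a log2 fold change of 0.59 in cells and -0.55 in tumors, both past the threshold. Ccnk had 0.42 and -0.11, Cp, which encodes the ferroxidase ceruloplasmin, had -0.26 and 0.22, and Mpst, a neighbour of Tmprss6, had -0.51 and 0.20; these passed the threshold in cells and not in tumors. Rac2, another neighbour, had -0.85 and 0.38, and the protease gene Tmprss11d had -0.86 and 0.39, past the threshold in neither. In cells Rac2 had at most 24 counts in a library and Tmprss11d at most 17. With 3 libraries per group, single libraries that stand apart were not checked for here.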

How the results depend on the processing

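Obp2a and Tmprss6 in tumors kept the direction of their log2 fold change in all 13 alternatives, from 3.58 to 4.27 when a library was left out for Obp2a and from 2.37 to 3.15 for Tmprss6. Tmprss6 in cells stayed positive in all, but its call depended on the setting. It was lost with the replicate block (log2 fold change 3.66, adjusted p = 0.0563, edgeR), with libraries 1 and 2 alone (3.34, adjusted p = 0.0981), and in limma on log2(TPM + 1) (0.29, adjusted p = 0.109) and log2(TPM + 0.1) (1.49, adjusted p = 0.0593), which compress low values; leaving out a library gave 3.23 to 5.39. The cause of the other losses was not tested. Obp2a in cells summed to 2 counts, to 0 with libraries 1 and 2 alone, and to 0 to 2 when a library was left out; scaling, filter, unit and block leave these counts as they are and were not run for it.

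With libraries 1 and 2 alone, the number of genes called in tumors went from 4176 to 1, and the lipocalin, hepcidin and iron, and neighbour lists went from 3, 5 and 1 to 0 each. Leaving out one library gave 1877 to 5724 genes, 0 to 8 lipocalins, 4 to 14 hepcidin and iron genes, 0 to 6 neighbours and 0 to 1 proteases (St14, without vehicle library 1). Neighbours numbered 2 (Lcn10 and Tst) with DESeq2, without the filter and with the replicate block. Without the filter 2 proteases were called in tumors, Corin and Tmprss9. In cells the only protease called, Tmprss11e, made the count 1 without the filter, in both TPM fits and with libraries 1 and 2 alone, and 0 to 1 when a library was left out. Leaving out a library in cells gave 8622 to 8824 genes, 3 lipocalins, 18 to 19 hepcidin and iron genes and 4 to 5 neighbours. Named proteases here were added after their values were seen.

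Same-numbered libraries did not deviate together (correlations of 0.001 to 0.049 for cells, 0.004 to 0.006 for tumors), and the numbers were not taken as pairs. The replicate block gave 3477 genes in tumors and 8905 in cells, and Ftl1 in tumors was then at an adjusted p of 0.0584 (edgeR). In cells 49.7% of calls were higher in the main comparison, 36.1% under library totals and 29.3% with log2(TPM + 1); in tumors the last gave 33.5% against 44.4%. Depth limits Obp2a, Hamp and Obp2b in cells, where 3 counts are 0.151 to 0.231 CPM.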
